A study of Mus musculus with 2 samples.

Results

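The genes followed here are 10 markers of pericytes, namely Rgs5, Notch3, Abcc9, Kcnj8, Cspg4, Mcam, Higd1b, Ndufa4l2, Cox4i2 and Trpc6. They were taken as a list from their known use as markers, 10 of the 32285 genes listed in each library, and not by a rule on their measured levels. The cells were adipose progenitors from the stromal vascular fraction (SVF, the cells other than fat cells that digestion releases). They came from male and female C57/BL6J pups at postnatal day 0 per the labels, with day 1 given in the study's methods. By those methods the digest was filtered and plated, and blood cells and debris were washed off. Subcutaneous white tissue (WAT) was digested for 35 min and interscapular brown tissue (BAT) for 50 min. Both were grown for 4 days to confluency before capture by the study's methods, while its results section gives a longer expansion. There was no treatment and no genetic change. Each depot gave 1 library of pooled pups, so depot, digestion time and library cannot be told apart and no difference below has a replicate check. The cells captured are those present after culture.

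Pericytes are mural cells that wrap the endothelium of capillaries, share a basement membrane with it, and grade into the smooth muscle of larger vessels. No single gene defines them. They are recognised by several genes in the same cell, among them a G protein regulator, a Notch receptor that mural cells need for their maturation, the vascular ATP-sensitive potassium channel and a few mitochondrial protein isoforms, and in adipose tissue they have been discussed as neighbours or relatives of adipocyte precursors. None of the clusters that the authors described carries a pericyte name, and the question here was where the 10 genes are found and whether single cells hold several of them.

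The white library held 5261 barcodes with a median of 26239 unique molecular identifiers (UMIs, counted transcript molecules) and the brown library 7009 with a median of 26411. The authors' limits on genes, mitochondrial share and UMIs kept 4407 and 6137 of them. Cluster labels were at hand for 1999 precursor cells per depot, in 7 clusters each: adipocyte precursor cells (wAPC 1 to 4, bAPC 1 to 5), committed adipogenic precursors (wCAPs, bCAPs), fibro-adipogenic progenitor-like cells (wFAPLs, bFAPLs) and, in WAT, differentiating wFAPLs. Labelled glial cells numbered 20 and 22, myeloid cells 14 and 27, and brown myoblasts 8, with median depths from 17174.5 UMIs (brown glial) to 30445 (myoblasts). The glial cells carried 1501 and 1407 CPM of 6 glial genes summed, against 22.6 and 17.1 CPM in all labelled precursor cells. The libraries shared 9 barcodes, of which 8 passed in both. Levels are given as CPM, the UMIs of a gene per 1000000 UMIs of all cells summed, with 95% exact Poisson intervals that cover counting error only. In a sum over cells, fewer cells with a gene and fewer molecules per cell cannot be told apart, so the share of cells is given beside the main levels. Levels of different genes were not compared with each other, since reads were taken near transcript ends.

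In the GENCODE M21 annotation of GRCm38, Kcnj8 (chromosome 6, 142564837 to 142571614) and Abcc9 (chromosome 6, 142587862 to 142702315) are direct neighbours on the minus strand, with 16247 bases and 0 genes between them. Notch3, Abcc9, Mcam, Ndufa4l2 and Trpc6 are each overlapped by a gene on the opposite strand, and how the counting treated strand is not given in the sources used here. Promoter windows of 300 bases (250 before and 50 after the start site) were found in RefSeq, GRCm38.p6, for 7 of the 10 genes, all but Higd1b, Ndufa4l2 and Cox4i2. The windows of the 3 genes with the largest ratios in both FAPL clusters are shown, 5′ to 3′ on the gene's own strand: Rgs5 at chr1:169655251-169655550 (plus), Abcc9 at chr6:142702225-142702524 (minus) and Kcnj8 at chr6:142571565-142571864 (minus).
Rgs5: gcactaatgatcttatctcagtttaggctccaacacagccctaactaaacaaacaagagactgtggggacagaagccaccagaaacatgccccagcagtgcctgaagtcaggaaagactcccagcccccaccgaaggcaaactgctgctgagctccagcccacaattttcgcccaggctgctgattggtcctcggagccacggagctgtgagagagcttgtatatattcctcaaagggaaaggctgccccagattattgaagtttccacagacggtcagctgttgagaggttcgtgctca
Abcc9: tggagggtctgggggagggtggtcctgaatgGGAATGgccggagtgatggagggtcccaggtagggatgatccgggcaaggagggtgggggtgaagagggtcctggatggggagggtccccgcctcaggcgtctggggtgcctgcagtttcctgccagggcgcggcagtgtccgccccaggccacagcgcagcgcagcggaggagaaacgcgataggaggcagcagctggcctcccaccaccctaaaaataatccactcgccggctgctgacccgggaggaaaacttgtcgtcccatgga
Kcnj8: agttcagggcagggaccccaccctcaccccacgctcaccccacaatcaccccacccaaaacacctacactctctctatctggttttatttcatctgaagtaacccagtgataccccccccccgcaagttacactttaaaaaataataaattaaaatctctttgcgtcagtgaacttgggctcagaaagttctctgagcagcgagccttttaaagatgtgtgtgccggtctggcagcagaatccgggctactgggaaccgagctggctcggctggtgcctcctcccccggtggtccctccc
Motifs were searched on both strands, the CArG box bound by serum response factor, GTGGGAA bound by the Notch effector RBPJ and GGAATG bound by TEAD factors. Capitals mark the single match in these 3 windows, GGAATG in Abcc9, which begins at position -219 from the start site. Among 32851 distinct windows of 300 bases, with 1 chromosome left out, 14.7% hold GGAATG, 6.38% hold GTGGGAA and 1.63% hold a CArG box. Of the other 4 windows, that of Trpc6 holds 1 CArG box, at position -122, which overlaps neither other motif. A match or its absence describes these letters and nothing about the factor.

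**Figure D1:**
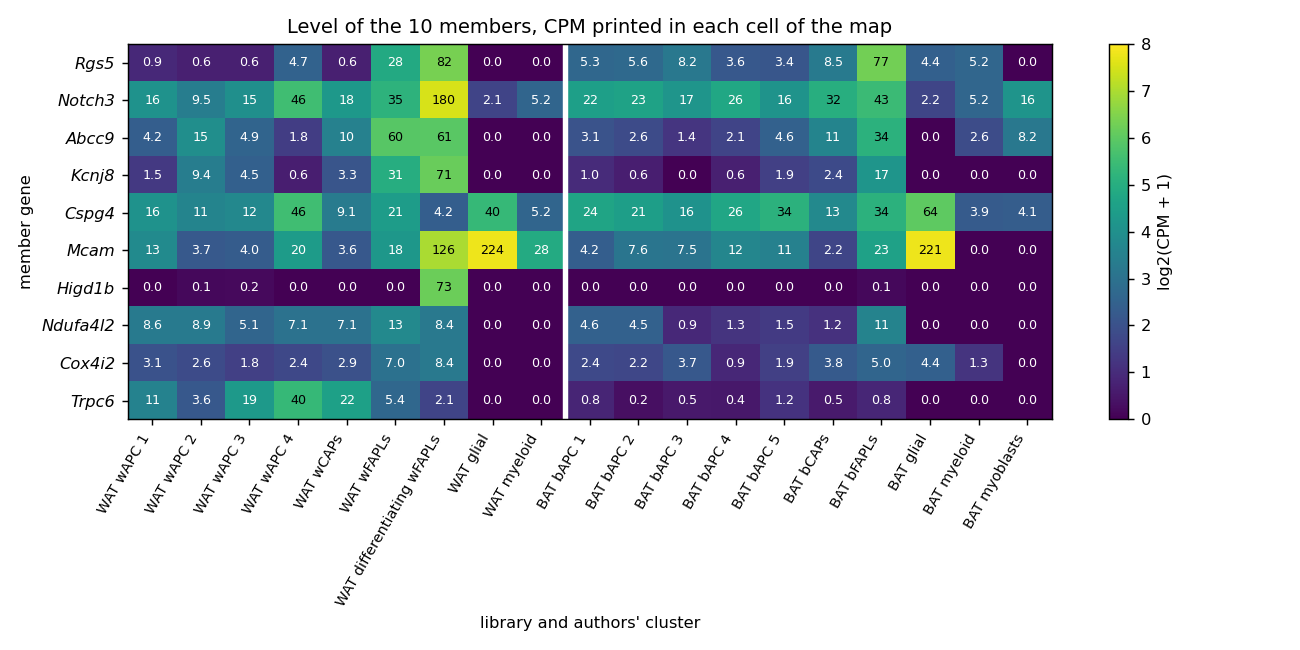
Level of each gene (rows) in each authors' cluster (columns, white library left of the white line, brown library right), coloured by log2(CPM + 1) with the CPM printed. In WAT, 7 of the 10 genes have their highest precursor level in differentiating wFAPLs (with intervals that overlap the next cluster for Abcc9 and Cox4i2). In BAT 9 of the 10 have theirs in bFAPLs (with such overlap for Cspg4, Cox4i2 and Higd1b, the last with 1 UMI). The share of all genes that are highest in these clusters was not counted, so both counts describe the 10 genes only. Mcam reaches 224 and 221 CPM in glial cells.

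Rgs5, a GTPase-activating protein that shortens G protein signals in mural cells, was concentrated in the FAPL clusters of both depots. Among the white clusters its level was 81.8 CPM (58.1 to 112, 39 UMIs) in differentiating wFAPLs and 28.3 CPM (24.6 to 32.5, 203 UMIs) in wFAPLs, against 4.71 CPM in wAPC 4 and 0.615 to 0.905 CPM in the other 4 clusters. In BAT it was 76.8 CPM (70.7 to 83.3) in bFAPLs and between 3.41 CPM (bAPC 5) and 8.53 CPM (bCAPs) elsewhere. These low brown levels overlapped those of brown glial cells (4.42 CPM, 0.535 to 16, 2 UMIs) and myeloid cells (5.21 CPM, 1.42 to 13.3, 4 UMIs), both of which rest on few UMIs. Single cells of these clusters held several UMIs at once, up to 15 in bAPC 1 and up to 9 each in bAPC 2, bAPC 3 and bCAPs, and 6 of the 581 bAPC 1 cells held at least 50% of that cluster's 94 UMIs. At 10000 UMIs per cell, Rgs5 was found in 4.55% of brown glial cells and in 0.704 to 6.43% of the brown clusters other than bFAPLs. In white glial and myeloid cells the gene had 0 UMIs.

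Within the FAPL clusters Rgs5 sat in a minority of cells. It was found in 25.8% of 279 bFAPLs and 16.8% of 256 wFAPLs, or in 17.6% and 9.77% once each cell was drawn down to 10000 UMIs. The 10 richest bFAPLs held at least 50% of the cluster's 579 UMIs, and 21 bFAPLs had 10 UMIs or more. The 4 richest wFAPLs held at least 50% of that cluster's UMIs and 1 cell alone held 52 of 203, or 25.6%. Without that cell the wFAPL level was 21.2 CPM. A Poisson interval takes no account of such unequal cells.

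Abcc9 (SUR2) and Kcnj8 (Kir6.1), the regulatory and the pore subunit of the vascular ATP-sensitive potassium channel, followed each other. Abcc9 stood at 60.2 CPM (54.7 to 66.2) in wFAPLs and 60.8 CPM (40.7 to 87.3) in differentiating wFAPLs, then at 14.6 CPM in wAPC 2, where 65 of 260 cells had it, and at 10.3 CPM in the committed cells, with a minimum of 1.77 CPM in wAPC 4. Kcnj8 had the same order of the first 3 clusters in WAT, with 71.3 CPM (49.4 to 99.6) in differentiating wFAPLs, 31.0 CPM (27.0 to 35.3) in wFAPLs and 9.41 CPM in wAPC 2, and a minimum of 0.589 CPM (1 UMI) in wAPC 4. In BAT bFAPLs led for both, with 34.5 CPM (30.4 to 39.0) of Abcc9 and 17.1 CPM (14.3 to 20.3) of Kcnj8, and bCAPs came second with 11.3 and 2.44 CPM. Both genes had 0 UMIs in the glial cells of either library.

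The other isoforms of that channel gave almost nothing: Abcc8 (SUR1) and Kcnj11 (Kir6.2), the subunits known from pancreatic beta cells, stayed at or below 0.0566 CPM in every labelled precursor cluster. Abcc9 and Kcnj8 were also each other's nearest gene over the 14 precursor clusters, with a Pearson r of 0.96 for log2(CPM + 1) among 10229 genes searched. The 14 points share 2 libraries and include FAPL clusters in both, so r is given as a description.

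Notch3, the Notch receptor typical of mural cells, was found in every precursor cluster. The white levels ran from 9.53 CPM (wAPC 2) through a median of 18.4 CPM to 180.3 CPM (144 to 223) in differentiating wFAPLs, where all 15 cells had at least 2 UMIs. The second place in WAT belonged to wAPC 4 with 46.0 CPM (36.3 to 57.4), whose interval overlapped that of wFAPLs at 35.1 CPM (30.9 to 39.8). The brown levels were flatter, from 16.1 CPM (bAPC 5) to 43.0 CPM (38.4 to 47.9) in bFAPLs. Glial cells had 2.11 and 2.21 CPM and myeloid cells 5.16 and 5.21 CPM.

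Of 16 other genes of the Notch pathway, 5 reached the level for a comparison (10 CPM in either group) in wFAPLs and 5 in bFAPLs, and 0 of them differed 2-fold from the other precursor cells of their library. Over all genes 1.94% were higher and 1.18% lower in wFAPLs, and 1.93% and 1.05% in bFAPLs, so these counts of 0 are near the shares. In wAPC 4, 4 of 7 were at least 2-fold higher, where 2.1% of 9228 genes were. These were Hey1 (20.0 against 0.629 CPM) and Heyl (55.4 against 2.01 CPM), both transcriptional targets of Notch, the receptor Notch1 (75.4 against 20.5 CPM) and the ligand Jag1 (118 against 32.5 CPM). Only their wAPC 4 level let Hey1 and Heyl be compared. In differentiating wFAPLs, which had the highest Notch3, Heyl was at 2.10 CPM (1 UMI) and Hey1 at 0 CPM. Of 6 compared Notch genes there, Jag1 (77.6 against 34.7 CPM) and the glycosyltransferase gene Lfng (14.7 against 5.10 CPM) were higher and Notch1 was lower (8.39 against 22.2 CPM). Over all genes 9.06% were higher and 16.1% lower in that comparison. Lfng and Notch1 rest on few UMIs, since 8.39 CPM is 4 UMIs in these 15 cells, and only its level there let Lfng be compared.

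The surface markers Cspg4 and Mcam were spread over more clusters. Cspg4, which encodes the proteoglycan NG2 and is used to sort pericytes, ranged in WAT from 4.19 CPM (2 UMIs) in differentiating wFAPLs to 46.0 CPM (36.3 to 57.4) in wAPC 4, with wFAPLs at 20.6 CPM. In BAT it ranged from 12.7 CPM in bCAPs to 34.4 CPM (30.3 to 38.8) in bFAPLs and 34.1 CPM (28.0 to 41.1) in bAPC 5, 2 clusters that did not differ beyond their intervals. Mcam (CD146), an adhesion molecule of vessel walls, was at 126 CPM (96.0 to 162) in differentiating wFAPLs, 20.0 CPM in wAPC 4, 17.7 CPM in wFAPLs and 3.56 to 13.2 CPM in the other white clusters. The brown maximum of Mcam was 23.1 CPM (19.8 to 26.8) in bFAPLs and the minimum 2.19 CPM in bCAPs.

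Both surface markers were higher in glial cells than in the labelled precursor cells as a whole. Mcam stood at 224 CPM (183 to 271) in the white glial cells. In the brown ones it stood at 221 CPM (179.8 to 269). At 10000 UMIs per cell it was found in 75.0% and 86.4% of glial cells, against 6.70% and 7.25% of all labelled precursor cells. Cspg4 reached 40.1 CPM (24.2 to 62.6) and 64.1 CPM (42.9 to 92.0) there. White myeloid cells had 28.4 CPM of Mcam, all 11 UMIs in 1 cell.

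Higd1b, a small mitochondrial membrane protein of the hypoxia-inducible domain family, was the most restricted of the 10. Of 37 UMIs in labelled white precursor cells 35 came from 10 of the 15 differentiating wFAPLs (73.4 CPM, 51.1 to 102), 1 each came from wAPC 2 and wAPC 3, and wFAPLs had 0 UMIs, with an upper bound of 0.514 CPM. The brown precursor cells gave 1 UMI, in a bFAPL. Over all filtered cells 100 UMIs were counted in 25 white cells and 10 UMIs in 5 brown cells, and 21 of the 25 white cells had at least 2 UMIs. With labels carried over to all filtered cells, 84 of the 100 white UMIs fell in 21 of 28 differentiating wFAPLs and 11 in a single wFAPL. Its relatives did not share the pattern: Higd1a was found at 157.9 CPM or more in every white precursor cluster and Higd1c at 0.

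Ndufa4l2, a hypoxia-induced relative of a respiratory chain subunit, and Cox4i2, an isoform of a cytochrome c oxidase subunit known from lung and hypoxia, were low everywhere. The white range of Ndufa4l2 was 5.07 CPM (wAPC 3) to 12.6 CPM (10.1 to 15.4, wFAPLs). The brown range was wider, from 0.913 CPM (bAPC 3) to 10.9 CPM (8.65 to 13.5) in bFAPLs. Cox4i2 stayed under 10 CPM in all 14 clusters, with 6.97 CPM (5.18 to 9.19) in wFAPLs and 5.04 CPM (3.57 to 6.92) in bFAPLs. Their common isoforms Ndufa4 and Cox4i1 were found at 396 CPM or more in every precursor cluster. Of 10 hypoxia genes, 1 of 7 compared was 2-fold higher in wFAPLs, the vasodilator peptide gene Adm (109 against 50.1 CPM), and 0 of 7 in bFAPLs. Over all genes these shares were 1.94% and 1.93%.

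Trpc6, a diacylglycerol-gated cation channel of smooth muscle and pericytes, had another pattern than the other genes. It was found mainly in the white library, with 846 UMIs in labelled white precursor cells and 35 in brown ones. Its white levels were 40.1 CPM (31.1 to 50.8) in wAPC 4, 22.3 CPM (20.2 to 24.5) in the committed cells and 18.9 CPM (15.7 to 22.6) in wAPC 3, against 5.44 CPM (3.87 to 7.44) in wFAPLs and 2.10 CPM (1 UMI) in differentiating wFAPLs. The 432 UMIs of wCAPs made up 51.1% of the total and were spread over 152 of 674 cells. In wAPC 4 a single cell held 27 of 68 UMIs, and without it the level was 24.6 CPM. No brown cluster passed 1.24 CPM. The related channel Trpc4 stayed at or below 2.10 CPM in all labelled precursor clusters and Trpc1 between 6.44 and 13.6 CPM.

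The FAPL clusters were then set against the other labelled precursor cells of their own library. The authors formed the clusters from the same counts, so ratios describe the clusters and carry no test. A gene was compared when it had 10 CPM or more in either group and was called at a 2-fold ratio. In wFAPLs 4 of 8 compared genes were called higher, where 1.94% of 9138 genes were: Rgs5 (log2 ratio 4.13, interval 3.75 to 4.52), Kcnj8 (2.80, 2.53 to 3.08), Abcc9 (2.79, 2.59 to 2.98) and Mcam (1.12, 0.82 to 1.41). All 4 had under 10 CPM in the other white precursor cells (1.61 to 8.73 CPM), so only their wFAPL level let them be compared. The share over all genes follows the same rule. Trpc6 was called lower (-1.56, -2.07 to -1.10), where 1.18% of genes were. Notch3 (0.94), Cspg4 (0.67) and Ndufa4l2 (0.73) had intervals above 0 but lay under the 2-fold line. The reference for Notch3 includes the differentiating wFAPLs, at 180.3 CPM. Notch3 stood at 35.1 CPM in wFAPLs and at 16.7 CPM in the white clusters other than FAPLs, a reference for which no call was made. Without the 1 cell with most Mcam UMIs (13 of 127) the ratio of Mcam was 0.98, and 3 genes remained called.

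In bFAPLs 5 of 7 compared genes were called higher, where 1.93% of 9049 genes were. They were Kcnj8 (log2 ratio 4.02, 3.55 to 4.51), Rgs5 (3.70, 3.50 to 3.91), Abcc9 (3.04, 2.78 to 3.31), Mcam (1.92, 1.64 to 2.19) and Ndufa4l2 (1.75, 1.35 to 2.15). The 4 genes called in wFAPLs were among them, and 0 were called lower, where 1.05% of genes were. All 5 called genes had under 10 CPM in the other brown precursor cells (1.05 to 6.11 CPM), so only their bFAPL level let them be compared. Notch3 (0.88) and Cspg4 (0.66) again lay under 2-fold. Ndufa4l2 was at 9.85 CPM, just under the level for a comparison, once its richest bFAPL cell was left out.

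**Figure D2:**
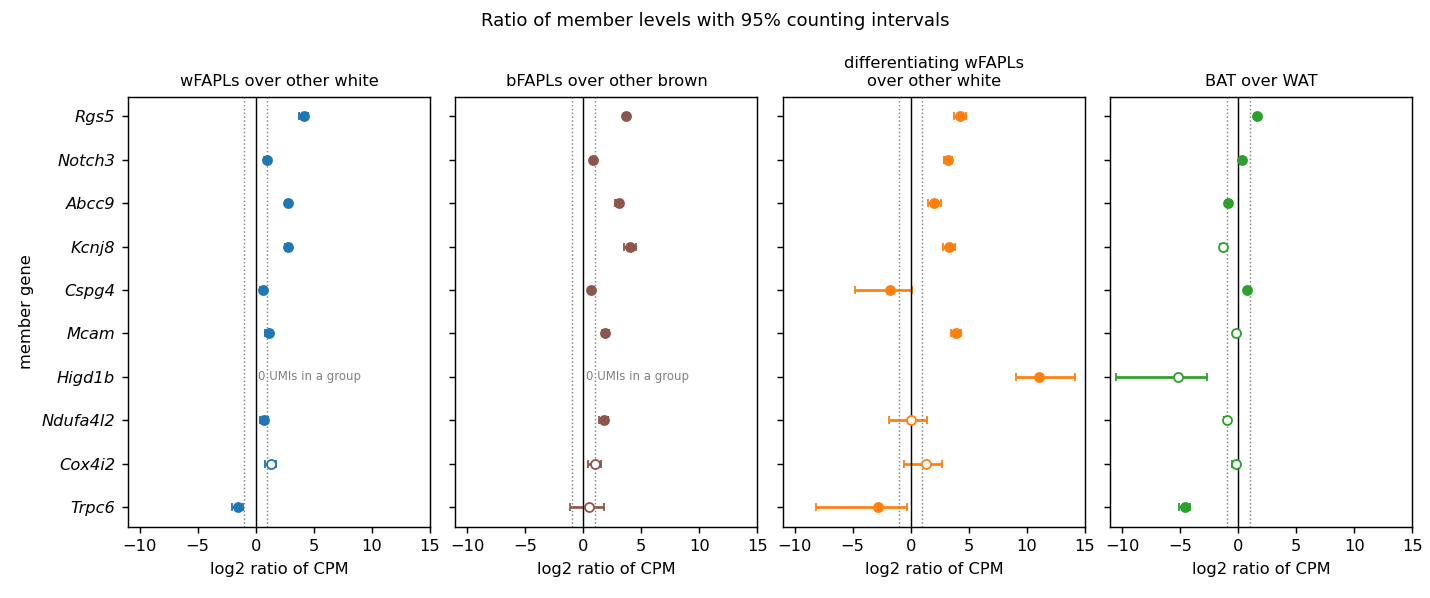
Log2 ratio of CPM (horizontal) for each gene (rows) in 4 comparisons, with 95% counting intervals. Filled points had 10 CPM or more in either group, open points did not, dotted lines mark 2-fold, and the panel labelled BAT over WAT shows Rgs5 at 1.61 and Trpc6 at -4.61.

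The companion genes of mural cells moved less evenly. Of 12 other mural genes, 5 could be compared in wFAPLs and 1 was 2-fold higher, where 1.94% of 9138 genes were. It was Gucy1a1, a subunit of the nitric oxide receptor (28.9 against 12.6 CPM). In bFAPLs 4 of 7 were higher, where 1.93% of 9049 genes were. They were Gucy1a1 (21.4 against 4.02 CPM), Gucy1b1 (27.5 against 8.16 CPM), Rasl12 (15.4 against 4.68 CPM) and the cyclic GMP phosphodiesterase gene Pde5a (42.3 against 16.7 CPM). Gucy1a1, Gucy1b1 and Rasl12 had under 10 CPM in the other brown precursor cells, so only their bFAPL level let them be compared. Of 10 smooth muscle genes, 2 of 9 were higher in wFAPLs and 2 of 9 in bFAPLs, in both cases Myh11 (102 against 35.2 CPM in WAT, 48.4 against 9.43 CPM in BAT) and Actg2. In BAT only its bFAPL level let Myh11 be compared. Of 12 family partners of the 10 genes, 5 were compared in each FAPL cluster and 0 were called. The pericyte gene Vtn stayed at or below 0.154 CPM in all labelled precursor clusters. Of 8 endothelial genes 0 reached 10 CPM in either FAPL cluster, and their summed level was 16.9 CPM in wFAPLs and 12.7 CPM in bFAPLs, against 11.5 and 8.84 CPM in all labelled precursor cells.

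Precursor genes differed in both directions in these clusters. Of 6 such genes, Lum (212 against 44.6 CPM) and Dcn (961 against 414 CPM) were higher and Dlk1 and Pparg lower in wFAPLs, and Lum was higher and Dlk1 and Pparg lower in bFAPLs. Pdgfra, the receptor that marks fibroblastic precursors and pericytes mostly lack, stood at 82.7 CPM in wFAPLs and 78.5 CPM in bFAPLs. Of the 6 glial genes, 1 was compared in each FAPL cluster and 0 were called. Of 6 myeloid genes, 1 was compared in wFAPLs, Lyz2, and it was higher (19.9 against 2.03 CPM). Only its wFAPL level let it be compared. The list summed to 31.1 CPM in wFAPLs, 9.31 CPM in all labelled white precursor cells and 10310 CPM in white myeloid cells, and Ptprc, its defining marker, stood at 0.697 CPM in wFAPLs. The part of such cells in the wFAPL values was not tested. The 6 myogenic genes summed to 0.139 CPM in wFAPLs and 0.929 CPM in bFAPLs, against 4347 CPM in the labelled myoblasts.

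The differentiating wFAPLs, 15 labelled cells with a median of 31090 UMIs, held the fullest set. Of 8 compared genes 6 were called higher than in the other white precursor cells, where 9.06% of 9502 genes were. The log2 ratios were 11.03 for Higd1b (9.07 to 14.13, against 2 UMIs in all other cells), 4.25 for Rgs5 (3.72 to 4.74), 3.91 for Mcam (3.50 to 4.30), 3.30 for Kcnj8 (2.75 to 3.81), 3.24 for Notch3 (2.91 to 3.56) and 2.04 for Abcc9 (1.45 to 2.57). Higd1b, Rgs5, Mcam and Kcnj8 had under 10 CPM in the other white precursor cells, so only their level in these 15 cells let them be compared. Cspg4 (2 UMIs) and Trpc6 (1 UMI) were called lower, where 16.1% of genes were, and the interval of Cspg4 included 0. In this comparison the median log2 ratio of genes with 10 CPM in both groups was -0.18, and the numbers called did not change when ratios were centred on it.

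Against wFAPLs alone, 5 of 8 compared genes were 2-fold higher in differentiating wFAPLs, where 8.04% of 9481 genes were. Cspg4 was lower, where 14.7% were, and Abcc9 was level (log2 ratio 0.01, -0.58 to 0.56). The genes were found unevenly across the 15 cells. Notch3 had a UMI in all 15, Mcam in 12, Kcnj8 in 11, Rgs5 and Higd1b in 10 each and Abcc9 in 8. Each cell had between 2 and 7 of the 10 genes, with a median of 5. Rgs5 ran from 0 to 15 UMIs per cell, and 1 cell gave 38.5% of its UMIs.

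**Figure D3:**
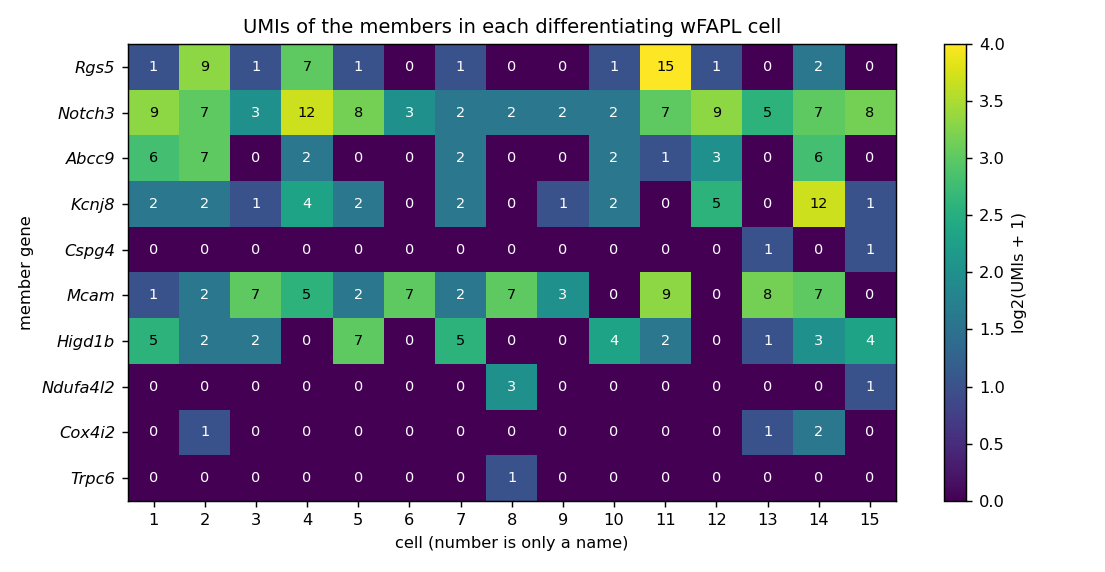
UMIs of each gene (rows) in each of the 15 labelled differentiating wFAPLs (columns, numbered only as names), coloured by log2(UMIs + 1). Notch3 has 2 to 12 UMIs in every cell, while Cspg4 has 1 UMI in each of 2 cells and Trpc6 1 UMI in 1 cell.

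These 15 cells also had a contractile profile. Of 10 smooth muscle genes 9 were 2-fold higher than in the other white precursor cells, where 9.06% of 9502 genes were. Acta2 stood at 24520 against 3434 CPM, Myh11, the smooth muscle myosin heavy chain, at 2522 against 22.8 CPM and the coactivator gene Myocd at 62.9 against 2.92 CPM. Of 9 compared mural genes 7 were higher, led by Des (149 against 1.93 CPM), Itga7 (29.4 against 0.932 CPM), Gucy1a1 (214 against 12.9 CPM) and Rasl12 (65.0 against 4.41 CPM), while Vtn had 0 UMIs. Myocd, Des, Itga7 and Rasl12 had under 10 CPM in the other white precursor cells, so only their level in these 15 cells let them be compared. Of 6 precursor genes 5 were lower, where 16.1% of genes were, with Pdgfra at 6.29 against 116 CPM and Lum at 0 against 66.1 CPM. Of the 8 endothelial genes 1 was found, the adhesion gene Esam (27.3 CPM), and the other 7, Pecam1 among them, had 0 UMIs. Of the other lists, the hypoxia genes had 3 of 9 higher and 1 lower, and the family partners 2 of 6 higher, Rgs4 and Rgs16. The 1 compared myeloid gene, Csf1r, stood at 12.6 against 2.83 CPM and was compared only through its level in these 15 cells. Myogenic genes had 0 UMIs.

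Between depots, 5 of the 10 genes reached 10 CPM in either set of labelled precursor cells. Rgs5 was called higher in BAT (15.1 against 4.95 CPM, log2 ratio 1.61, 1.42 to 1.81), where 0.752% of 9041 genes were. Trpc6 was called higher in WAT (14.7 CPM, against 0.606 CPM in BAT, log2 ratio BAT over WAT -4.61, -5.14 to -4.12), where 1.07% were. The ratio of Trpc6 was -4.81 without the FAPL clusters, with 0.577 against 16.2 CPM. For Rgs5 the levels without FAPLs were 5.89 and 0.845 CPM, both under 10 CPM, so the call was lost although the ratio was 2.80.

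The remaining 3 compared genes lay under 2-fold. Notch3 (25.9 against 20.4 CPM, 0.35) and Cspg4 (23.4 against 13.96 CPM, 0.74) were somewhat higher in BAT, and Abcc9 (8.13 against 15.2 CPM, -0.90) in WAT, with intervals that excluded 0. Kcnj8 had a ratio of -1.30 (-1.56 to -1.05) at 3.15 against 7.76 CPM, too low for a call. Mcam (-0.16) and Cox4i2 (-0.22) had intervals that included 0, from -0.34 to 0.02 and from -0.53 to 0.09. A difference of that size was not detectable at this depth.

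Within matched clusters the same genes stood apart. In bFAPLs against wFAPLs Rgs5 was the 1 gene of 7 compared that was called higher (76.8 against 28.3 CPM, log2 ratio 1.44, 1.21 to 1.68), where 0.646% of 9136 genes were, and 0 were called lower, where 1.04% were. Abcc9 (-0.80, -1.03 to -0.58) and Kcnj8 (-0.86, -1.18 to -0.54) were lower in bFAPLs by less than 2-fold. In bCAPs against wCAPs 1 of 4 compared genes was called, Trpc6 (0.488 against 22.3 CPM, log2 ratio -5.51, -7.40 to -4.15), where 2.18% of 9235 genes were lower, and 0 were called higher, where 2.14% were.

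The cluster wAPC 4, 62 labelled cells, carried a different subset. Of 5 compared genes 4 were called higher than in the other white precursor cells, where 2.1% of genes were, namely Cspg4 (log2 ratio 1.82, 1.47 to 2.16), Trpc6 (1.52, 1.14 to 1.88), Notch3 (1.23, 0.88 to 1.56) and Mcam (1.15, 0.61 to 1.66), and Abcc9 was called lower (-3.14, -5.42 to -1.59), where 2.98% were. Without the richest cell of each gene the ratios of Trpc6 (0.82) and Mcam (0.99) fell under 2-fold, and those of Cspg4 (1.74) and Notch3 (1.12) did not. Of the mural list 4 of 6 were higher, with Pdgfrb, the receptor that recruits pericytes, at 343 against 147 CPM. Of the smooth muscle list 4 of 9 were lower, with Myh11 at 2.36 against 44.8 CPM, and of the hypoxia list 3 of 7 were lower.

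Co-detection was read in single cells after each was drawn down to 10000 UMIs, which left 4406 white and 6137 brown cells. In 51.4% of white and 52.6% of brown cells 0 of the 10 genes were found, and the mean was 0.71 and 0.66 genes per cell. At least 3 genes were found in 18.4% of wFAPLs, 17.6% of bFAPLs, 16.1% of wAPC 4 cells and 53.3% of differentiating wFAPLs, against 0 to 2.97% in the other precursor clusters. Glial cells had at least 1 gene in 80.0% and 86.4% of cells, and myeloid cells in 14.3% and 11.1%.

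**Figure D4:**
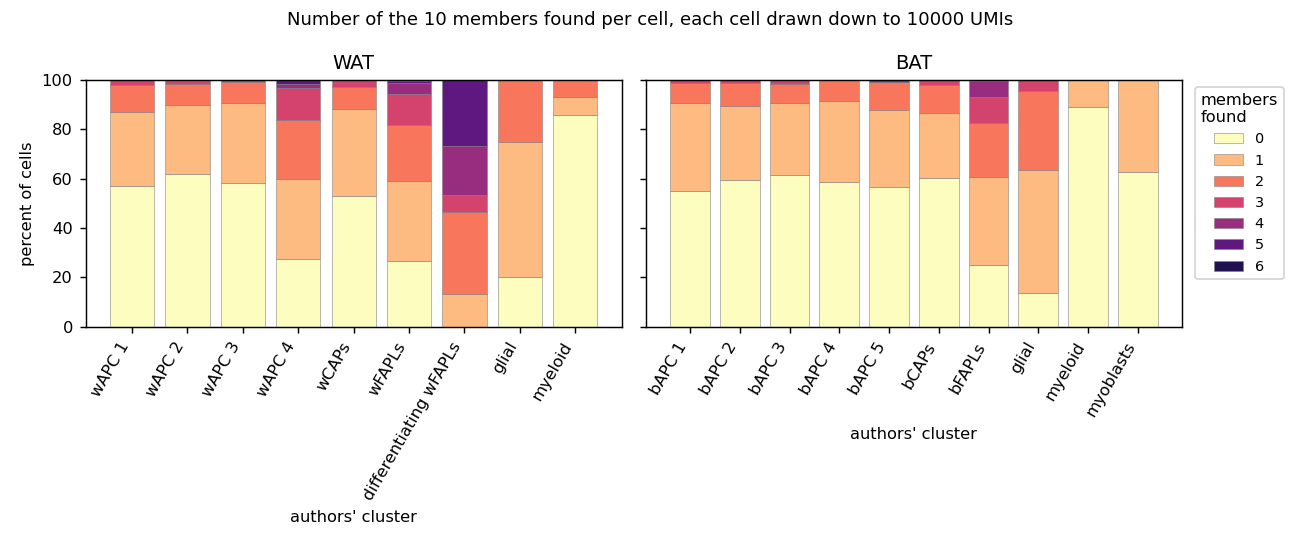
Percent of cells (vertical, stacked to 100) with 0 to 6 of the 10 genes found, per authors' cluster in each library, each cell drawn down to 10000 UMIs. The 0 class covers 26.6% of wFAPLs and 25.1% of bFAPLs, against 52.8% of wCAPs and 60.1% of bCAPs.

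Of the 45 pairs of genes, 35 in WAT and 29 in BAT had at least 5 cells expected to hold both if the genes were unrelated. The pair seen together most often beyond that number was Rgs5 with Kcnj8 in WAT (33 cells, 5.16 times) and Abcc9 with Kcnj8 in BAT (71 cells, 7.43 times). In BAT 43.8% of Kcnj8 cells also had Abcc9 (36.1 to 51.8%), against 4.87% of cells without Kcnj8. In WAT 23.5% of Abcc9 cells had Kcnj8 (19.7 to 27.7%), against 4.05% of the others. In WAT 1.89% of Trpc6 cells had Rgs5 (0.762 to 3.85%), against 2.45% of the others. Cells of different clusters are mixed in these numbers.

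**Figure D5:**
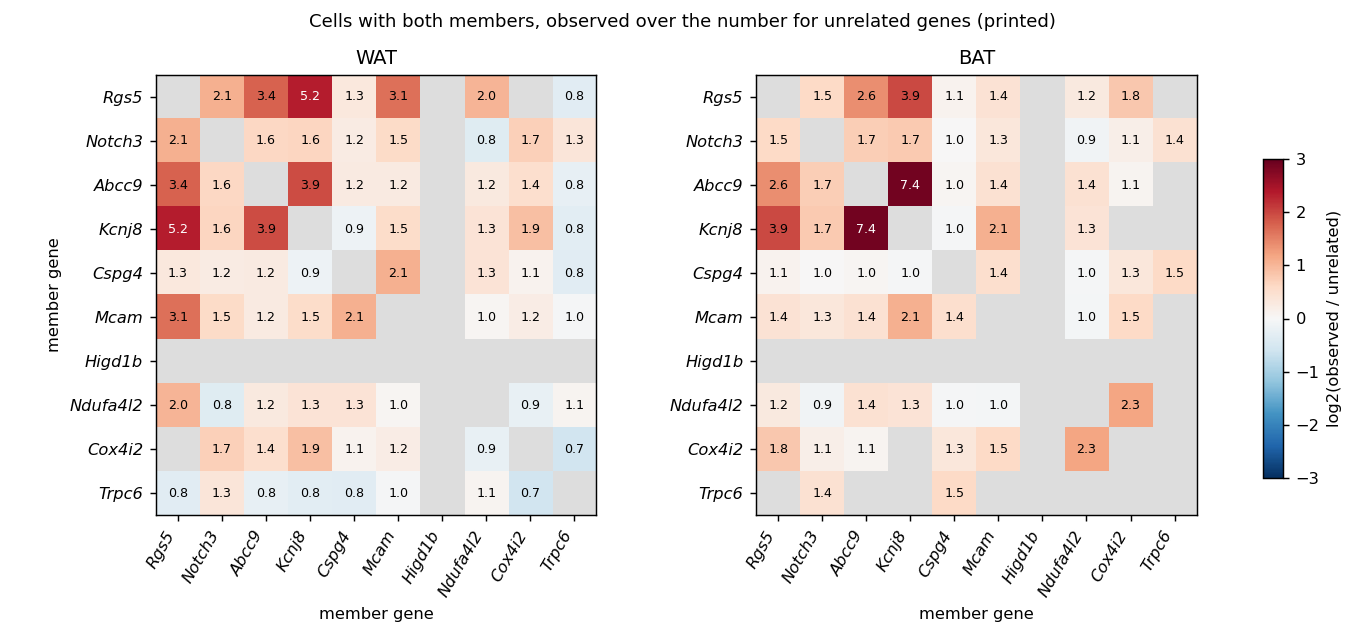
Number of cells with both genes divided by the number for unrelated genes (printed, coloured on a log2 scale), for the white and the brown library at 10000 UMIs per cell. Grey marks pairs with under 5 cells expected, and the block of Rgs5, Abcc9 and Kcnj8 reads 3.41 to 5.16 in WAT and 2.63 to 7.43 in BAT.

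Inside the FAPL clusters the excess was smaller. Among 16 pairs with enough cells in wFAPLs the ratios ran from 0.96 to 1.62, and 0 pairs passed 2 times. In bFAPLs they ran from 0.84 to 2.69 over 16 pairs, and 1 pair passed 2 times, Abcc9 with Kcnj8: 30.9% of 68 Abcc9 cells had Kcnj8 (20.2 to 43.3%), against 5.21% of the other bFAPLs. With labels carried over to all filtered cells these shares were 33.7% of 181 cells and 7.33%. In wFAPLs the same pair had 31.5% of 89 cells against 14.4%.

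Cells with 4 or more of the 10 genes were rare. They numbered 58 of 4406 in WAT (1.32%, exact binomial interval 1.00 to 1.7%) and 52 of 6137 in BAT (0.847%, 0.633 to 1.11%). By the authors' labels they made up 7 of 15 differentiating wFAPLs (46.7%, 21.3 to 73.4%), 15 of 256 wFAPLs (5.86%, 3.32 to 9.48%), 19 of 279 bFAPLs (6.81%, 4.15 to 10.4%) and 2 of 62 wAPC 4 cells, with 0 or 1 in each other cluster and 0 in labelled glial, myeloid and myoblast cells. With labels carried over, 35 of the 58 white cells were wFAPLs and 13 differentiating wFAPLs, and 46 of the 52 brown cells were bFAPLs. Their median depth before drawing was 25410.5 and 22177 UMIs, against 26915 and 26372 in the other cells. Of these cells 9 white and 4 brown ones had more than 40000 UMIs, and doublets were not removed. Without drawing down, the shares were 6.92% and 4.68%.

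Rgs5, Abcc9 and Kcnj8 were found together in 21 white and 21 brown cells. With labels carried over, 13 of the white cells were wFAPLs, 7 differentiating wFAPLs and 1 a wCAP, and 20 of the brown cells were bFAPLs and 1 a bCAP. Among all cells with 4 or more genes, Notch3 was part of the set in 82.8% (WAT) and 76.9% (BAT). Abcc9 was part of it in 70.7% and 78.8%, and Higd1b in 19.0% and 3.85%. The cells were picked on these same genes, which raises every such share by construction. In all filtered cells, drawn down alike, Notch3 was found in 16.6% (WAT) and 20.4% (BAT). Abcc9 was found there in 10.2% and 5.90%, and Higd1b in 0.363% and 0.0652%. The shares in the picked cells therefore do not rank the genes as marks of these cells. The most frequent set in BAT was Rgs5, Notch3, Abcc9 and Kcnj8, in 7 cells. In WAT that set and Notch3, Abcc9, Kcnj8 and Cspg4 were found in 4 cells each.

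The cells with 4 or more were picked on the 10 genes, and other genes are described beside them. Their reference was all other filtered cells, of every cluster. With labels carried over, 35 of the 58 white cells were wFAPLs and 13 differentiating wFAPLs, and 46 of the 52 brown cells were bFAPLs. The values here and in the next paragraph therefore also hold the differences between those clusters and the rest. No comparison within a cluster was made. Of 10 compared mural genes 8 were 2-fold higher in the white cells than in the other filtered cells, where 4.63% of 9354 genes were, and in the brown cells 4 of 8, where 3.85% of 9279 genes were. Of 10 smooth muscle genes 9 were higher in WAT and 6 in BAT, with Myh11 at 872 against 29.4 CPM and 264 against 13.4 CPM. Myh11 was found in 67.2% of the white cells (53.7 to 79.0%) against 8.42% of the others, and in 42.3% of the brown cells (28.7 to 56.8%) against 7.58%. Pdgfra was found in 27.6% of the white cells against 60.5%, and in 46.2% of the brown cells against 49.1%. Dcn was found in 74.1% of the white cells against 88.7%, and in 86.5% of the brown cells against 85.1%. Pecam1, Ptprc, Myod1 and Vtn were found in 0 of them at this depth, with upper bounds of 6.16% (WAT) and 6.85% (BAT). In the other cells each was found in 1.15% or less, so a count of 0 does not set these cells apart. Cdh5 was found in 1 white cell and 0 brown cells, and Sox10 in 0 white cells and 1 brown cell.

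Among the 10 other genes with the highest ratio in these cells, 3 were named in both depots: Myh11, the basement membrane protein gene Tinagl1 (300.05 against 13.0 CPM in WAT, 168 against 9.49 CPM in BAT) and Igfbp2, which binds insulin-like growth factors (191 against 6.45 CPM, 128 against 8.13 CPM). In WAT the list was Elobl, Kcnk3, Gm13889, Lmcd1, Myh11, Igfbp2, Tinagl1, Ppp1r14a, Bcam and Sema5b, and Elobl had UMIs, before drawing down, in 4 of the 58 cells. In BAT it was Ntrk3, Myh11, Tinagl1, Igfbp2, Serpinb6b, Gm12153, Serpinb1a, Parm1, Fhl1 and Angpt2, and Igfbp2 had UMIs in 7 of the 52 cells. Kcnk3, an acid-sensitive potassium channel, was found in 23 of the 58 white cells (84.4 against 1.23 CPM). Angpt2, a ligand of the Tie2 receptor, was found in 39 of the 52 brown cells (129 against 22.4 CPM).

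Over the 14 precursor clusters, genes outside the list resembled single markers. By Pearson r of log2(CPM + 1), Rgs5 was closest to Lrp10 (0.92), Serpinb6b (0.92) and Timp2 (0.91), and Notch3 to Rasl12 (0.94), Atp2b4 (0.94) and Pon2 (0.93). Mcam was closest to the receptor kinase gene Axl (0.92), Ndufa4l2 to the protease gene Ctsl (0.91), Cspg4 to Hspa2 (0.90) and Trpc6 to Mrpl1 (0.90). For Higd1b, closest to Krt7, Grap and Olfr558, the value rests on the differentiating wFAPLs alone. Cox4i2 stayed under 10 CPM and was not searched. These values come from 14 clusters that share libraries.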

How the data were processed

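Deposited counts of UMIs per gene and cell, which the authors made with Cell Ranger 7.0.1 against mm10 and did not normalize, were used for 1 white and 1 brown library. Cells with 3900 to 7700 genes, 1.7 to 5% mitochondrial UMIs and 6000 to 60000 UMIs were kept, as in the study's methods, with genes counted if found in at least 3 barcodes. Cluster labels came from the study's source data, of which 1999 precursor cells per depot were at hand. In an alternative, labels were carried over by vote of 15 neighbours (20 principal components, 2000 variable genes), and held-out cells got their own label back in 84.4% (WAT) and 80.2% (BAT). The rate was lower for wFAPLs (75.4%), differentiating wFAPLs (73.3%), wAPC 4 (54.8%), bFAPLs (78.9%) and bCAPs (70.6%), so carried-over counts of these clusters are less sure.

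UMIs were summed over cells and scaled to CPM, with 95% intervals from the exact Poisson (levels), Clopper-Pearson (shares) and conditional binomial (ratios) methods, which cover counting error only. With 1 library per depot no p-value or SE was computed. A call needed 10 CPM in either group and a 2-fold ratio. For co-detection UMIs were drawn at random without replacement to 10000 per cell, which left out 1 shallower white cell. Doublets were not removed, and cells up to 40000 UMIs were tried as an alternative. Other alternatives were drawn-down sums, other level limits, no filter on low levels and centring on the median ratio. Cells with 4 or more of the genes were also left out. The depots were compared without FAPLs, and the FAPL clusters were compared without wAPC 3 and bAPC 3 in the reference. Further alternatives were 3 or 5 genes, 5000 UMIs and another seed. Sums without the richest cell were added after the spread over cells was seen.

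The 10 genes, the lists (other mural, smooth muscle, Notch pathway, family partners, hypoxia, endothelial, glial, myeloid, myogenic and adipose precursor genes), the groups and the rules were chosen with earlier results of these data known. All 10 genes are named. Up to 4 genes per list were named by the largest log2 ratio, beside defining markers. For each of the 10 with 10 CPM in a cluster, the 3 genes with the highest Pearson r were found, and in cells with 4 or more genes the 10 others with the largest ratio at 50 CPM or more. Promoters came from RefSeq and positions from GENCODE M21. The software was scikit-learn 1.9.0, pandas 2.3.3, scipy 1.17.1, numpy 2.4.6, matplotlib 3.10.9 and Python 3.11.15, and the procedures were tested on simulated data.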

Additional observations from a re-analysis of the deposited data

Results flagged for a closer look

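The values here came from barcodes that the comparisons above did not use, those outside the authors' limits. Of 419 removed white barcodes with at least 10000 UMIs, 5 held 4 or more of the 10 genes at 10000 UMIs (1.19%, exact binomial interval 0.389 to 2.76%), near the 1.32% of kept cells. Of 640 such brown barcodes, 5 did (0.781%, 0.254 to 1.81%), near the 0.847% of kept cells. They are listed because they lie above the share that a count of 0 allows. Among removed white barcodes 28 UMIs of Higd1b were counted, in 2 barcodes, both above the limits on genes or UMIs, and among removed brown barcodes 5 UMIs. What these barcodes hold was not tested.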

How the results depend on the processing

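No paired analysis was possible because each depot has 1 library, and leaving out a replicate could not be done for the same reason. With labels carried over, 2 genes in place of 1 were called higher in WAT, the second being Abcc9 (log2 ratio -1.08), and with no filter on low levels 3 were. Without FAPLs 0 genes were called higher in BAT, since Rgs5 fell under the level limit. At a limit of 5 CPM, 7 white and 5 brown genes passed in all precursor cells, in place of 4 and 3. The share of cells with 4 or more genes was 6.922% (WAT) and 4.677% (BAT) without drawing down, 0.227% and 0.1629% at 5000 UMIs, 4.494% and 3.21% for 3 or more genes, and 0.4312% and 0.1141% for 5 or more, so it is set by depth and by the number asked for. The other 51 alternative counts and shares stayed within 1.5 times or the counting interval. Of the single-gene ratios 235 alternatives stayed within the counting interval and 27 left it. With the richest cell of each gene left out, an alternative chosen after seeing the data, these numbers become 267 and 31, and 0 reversed a call. Over all alternatives run, 3 to 5 genes were called higher in wFAPLs, 4 to 5 in bFAPLs and 5 to 7 in differentiating wFAPLs. In these cases the cause was not tested. At these depths a gene with 0 UMIs in 15 cells can hide a level of several CPM, and with 1 library per depot no spread between animals is known.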

Other observations

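Some companion genes also differed between depots. Rgs4, a relative of Rgs5 and also a mural gene, was 2-fold or more higher in BAT over all labelled precursor cells (13.8 against 2.44 CPM, log2 ratio 2.50, 2.24 to 2.77), in bFAPLs against wFAPLs (10.9 against 1.67 CPM) and in bCAPs against wCAPs (14.3 against 1.91 CPM). Gucy1a1 was lower in BAT (6.28 against 14.6 CPM). Myh11 was lower there too (14.5 against 43.6 CPM), but its white level rests in large part on the differentiating wFAPLs, as their level above shows. Against the white level of Myh11 outside those cells, given above with their contractile profile, the brown level was lower by less than 2-fold. In bCAPs against wCAPs 5 of 9 compared smooth muscle genes were higher in the brown library, where 2.14% of 9235 genes were. Among them were Lmod1 (61.3 against 20.2 CPM) and Cnn1 (98.3 against 41.2 CPM). Of the markers 0 of 4 compared were called higher, which is near that share and describes nothing particular to them. These are values of 1 library each.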
